A study of Mus musculus with 32 samples.

Results

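The 47 genes described here encode proteins of DNA repair and of the Fanconi pathway, and they were taken by symbol from a read count table of mouse oocytes. All 47 symbols were found among the 37441 genes kept, and all 47 passed the filter on low counts. Oocytes were collected at the germinal vesicle stage (GV, arrested before the meiotic divisions) and at metaphase II (MII, the mature egg) from females of the inbred strains B6 and D2 and of their B6xD2 F1 hybrid, all aged 8 to 12 weeks. The labels name no gene deletion, transgene or treatment of the animals. IBMX, which keeps the germinal vesicle intact, was in the medium for GV oocytes only, and zonae pellucidae were removed at both stages. Each library came from 9 to 20 oocytes of 1 mother, which the submitters treat as 1 biological replicate. The GV groups held 5 libraries (B6), 5 (D2) and 6 (F1) and the MII groups 6 (B6), 5 (D2) and 5 (F1), in 2 labelled batches of 18 and 14 libraries that each held every group. The titles of batch 2 open with 2 different numbers whose meaning the labels do not give: all 5 of its B6 libraries carry the second, and its D2 and F1 libraries are spread over both, so within batch 2 this number is partly tied to strain. Libraries are named below by batch and replicate number.

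DNA repair pathways deal with different lesions. Homologous recombination mends broken chromosomes by copying an intact strand, end joining ligates the ends directly, and the Fanconi proteins unhook crosslinks between the strands and hand the break to the recombination proteins. Mismatch, base excision and nucleotide excision repair replace mispaired, chemically altered or bulky bases. Oocytes use many of the same proteins in meiotic recombination, and a fully grown oocyte stores transcripts that serve maturation and the first cell cycles of the embryo, since transcription is largely silent between the grown GV oocyte and the activation of the embryonic genome.

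Library totals ran from 18.7 to 39.7 M counted reads (M, 1e6 reads), with a median of 28.1 M. Oocyte markers were abundant at both stages: 12 of them (among them Gdf9, Bmp15, Zp3 and Ddx4) summed to 8563 to 12620 CPM (counts of a gene per 1e6 reads of its library) in the 16 GV libraries and to 7124 to 10910 CPM in the 16 MII libraries. The medians of these sums were 11200 CPM in GV and 9493 CPM in MII, and of the 12 oocyte markers 6 fell and 3 rose. Transcripts of granulosa cells, the somatic cells around the oocyte, differed strongly between the stages. The 12 granulosa markers summed to 159 to 3751 CPM in GV libraries and to 96.8 to 185 CPM in MII libraries, 11 of the 12 fell, and Foxl2 had no read in any MII library. Of 11 markers of stroma and blood, 8 fell and 1 rose, with sums of 18.5 to 404 CPM in GV and 31.6 to 78.1 CPM in MII libraries; Hbb-bs and Hba-a1 had no read in MII libraries. In 3 GV libraries, all of batch 2, the mean log2 CPM of the granulosa markers was low (0.71 in B6 replicate 1, 1.45 in F1 replicate 1 and 1.58 in D2 replicate 2), against 3.39 to 6.19 in the other 13 GV libraries and -0.67 to 1.08 in MII libraries. Values below are CPM after scaling each library by TMM (trimmed mean of M values). They are shares of the RNA of a library, so fewer cells of a type and less RNA per cell cannot be told apart, and the total RNA per oocyte was not measured.

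The repair transcripts spanned a wide range of levels. Per kilobase of transcript and averaged over the 32 libraries, Chek1, the kinase that halts the cell cycle on unreplicated or damaged DNA, was highest at 125 CPM per kb. It was followed by Rad50, an ATPase of the break-binding MRN complex, at 93.0 CPM per kb, and by the uracil glycosylase Ung at 69.6. Msh6, which recognises mismatches, was at 49.5 CPM per kb and Brca2, a mediator of homologous recombination, at 48.5. The median of the 47 genes was 7.17 CPM per kb. The lowest levels were those of Fancf (0.651 CPM per kb) and Fanca (0.820), subunits of the Fanconi core complex, of the kinase Chek2 (0.846) and of the nuclease subunit Ercc1 (0.962). Without division by length, 8 genes had a mean over 100 CPM, 27 lay between 10 and 100 CPM and 12 below 10 CPM. Of the core complex genes, Fancc (9.71 CPM per kb) and Fancm (8.68) lay above that median and the others below it, while the checkpoint kinase Chek1 ranked first and Chek2 near the lower end.

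**Figure D1:**
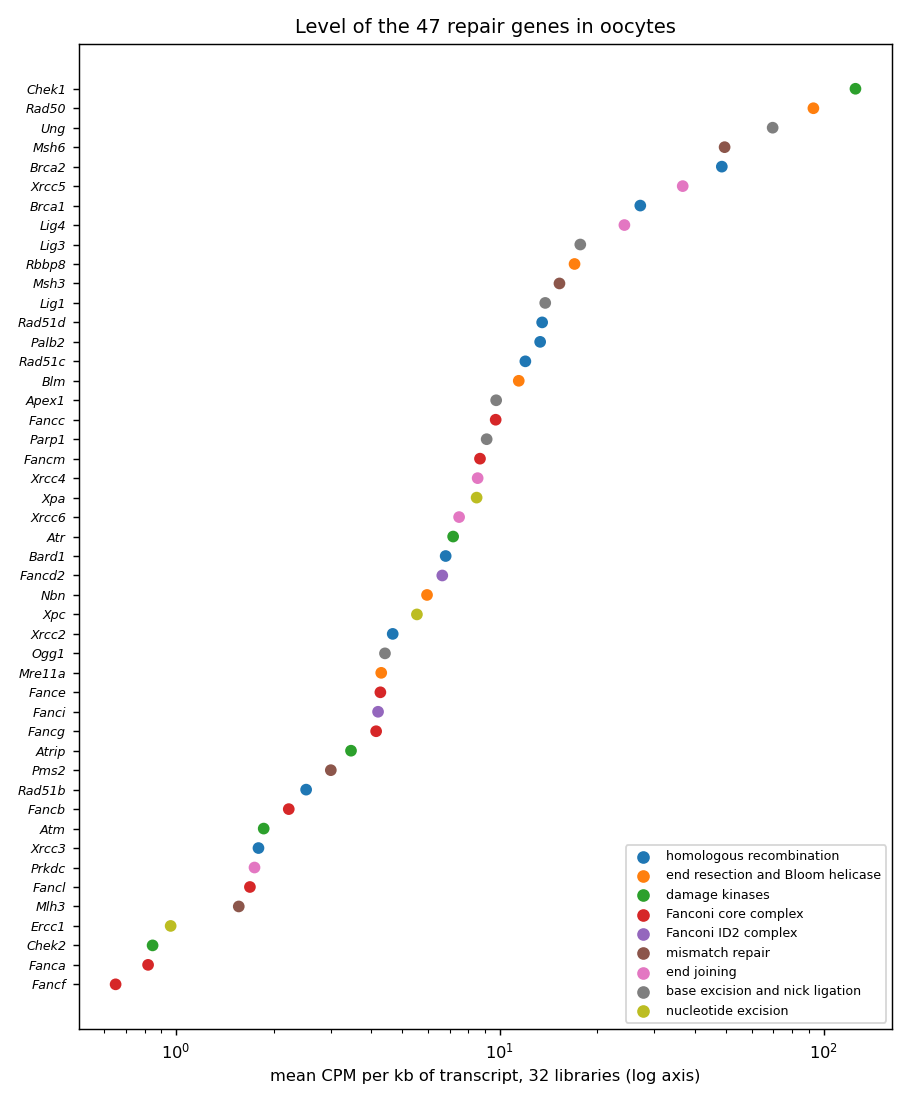
Mean level of each of the 47 repair genes over 32 libraries, in CPM per kb of transcript on a log axis, coloured by role. Levels ran from 0.651 for Fancf to 125 for Chek1.

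The comparison of MII with GV oocytes shows how the stored repair transcripts stood before and after maturation. Averaged over the 3 strains, 15 of the 47 genes rose and 1 fell by edgeR's quasi-likelihood test at an adjusted p under 0.05 (Benjamini-Hochberg over all 19003 genes tested). The risers were 31.9% of the 47, against 22.9% of all genes tested, and the single faller 2.13%, against 29.0% of all genes. The median log2 change was 0.07 for the 47 genes and -0.06 for all genes. No repair gene rose by 2-fold or more, and 1 fell by that much, while 155 genes rose and 3928 fell at least 2-fold in the whole table. With median-of-ratios scaling in place of TMM the same comparison gave 14 higher and 5 lower (73.7% of calls higher, against 93.8%); the 5 were Ercc1, Fancl, Prkdc, Xpc and Xrcc6.

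The genes that rose came from several repair pathways. In homologous recombination 5 of 9 genes rose (Brca1, Brca2, Palb2, Bard1 and Rad51c), and in end resection 3 of 5 (Rad50, Rbbp8 and Blm). With the granulosa level of each library added to the model, Rad51c alone of these 8 passed the threshold, and the log2 changes of Rad50, Bard1, Rbbp8, Blm and Brca1 were then 0.08, 0.05, 0.025, 0.003 and -0.05. The granulosa level itself moved with the stage, so that model separates stage from granulosa level poorly. It called 2344 of 19003 genes for the stage, against 9862 without the covariate. Both members of the ID2 complex, Fancd2 and Fanci, which the Fanconi core complex marks with ubiquitin, rose, while in the core complex 1 of 8 did (Fancm). In mismatch repair 2 of 4 rose (Msh6 and Pms2), among the damage kinases 1 of 5 (Chek1), and in base excision and nick ligation 1 of 6 (Lig3). None of the 5 end-joining genes passed the threshold. In nucleotide excision repair 1 of 3 fell (Ercc1).

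**Figure D2:**
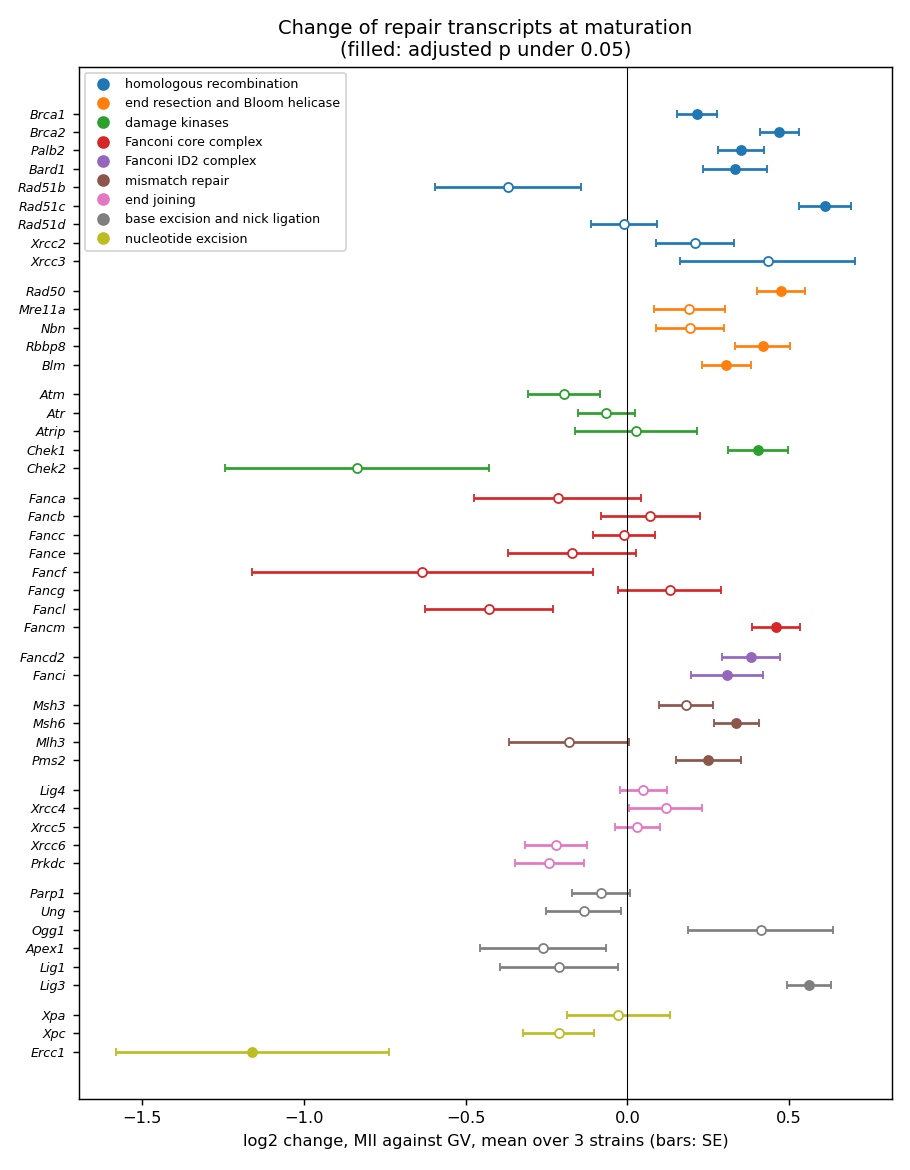
Log2 change from GV to MII of each of the 47 genes, averaged over 3 strains and grouped by role, with SE as bars and filled points for an adjusted p under 0.05. Filled points right of 0 are the 15 genes that rose, led by Rad51c at 0.61, and Ercc1 at -1.16 is the filled point to the left.

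Lig3 (chr11:82781109-82804274 on GRCm38), the DNA ligase of single-strand break repair and of mitochondria, had 59.1 CPM in its lowest, 76.8 in its median and 116 in its highest GV library, and 88.8, 133 and 183 CPM in the MII libraries. Within each batch the stages did not overlap: in batch 1 GV libraries reached 77.1 CPM and MII libraries began at 88.8 CPM, and in batch 2 GV libraries reached 116 CPM and MII libraries began at 134 CPM. The log2 change was 0.56 (SE 0.068, edgeR adjusted p = 2.217e-08), a 1.47-fold rise. Group means of Lig3 were 85.3 ± 16.6 CPM (SD, n = 5) in B6 GV, 88.7 ± 22.2 (n = 6) in F1 GV and 82.2 ± 25.7 (n = 5) in D2 GV, and 127 ± 28.6 (n = 6), 134 ± 33.5 (n = 5) and 115 ± 35.6 (n = 5) in the corresponding MII groups. In the GENCODE M21 annotation, exons of Lig3 share 1826 bases with the gene Rffl on the opposite strand. Since the strand setting of the counting is not given in the sources used here, reads within the shared bases cannot be told apart. The same holds, among others, for Apex1, whose exons share 877 bases with Pip4p1, for Fancm (572 bases, with Gm47870) and for Fancl (462, with Vrk2). Pms2 shares 363 exon bases with Gm42421 and 58 with Rsph10b, both on the same strand.

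Rad51c (chr11:87376645-87404954), which acts in homologous recombination, showed the largest rise of the 47 genes, 0.61 on the log2 scale (SE 0.081, edgeR adjusted p = 1.01e-07). Its lowest, median and highest levels were 21.8, 39.0 and 47.1 CPM in GV and 41.7, 56.9 and 75.0 CPM in MII libraries, and 13 of 16 MII libraries lay above every GV library. In batch 2 the stages did not overlap, with GV up to 47.1 CPM and MII from 50.0 CPM. Xrcc2, Xrcc3, Rad51d and Rad51b, which act in the same process, did not pass the threshold: log2 changes were 0.21 for Xrcc2, 0.43 for Xrcc3, -0.01 for Rad51d and -0.37 for Rad51b.

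Brca2 (chr5:150522297-150570147) had 259, 407 and 867 CPM as its lowest, median and highest GV levels and 390, 616 and 857 CPM in MII. The stages overlapped, since the GV library with 867 CPM (B6 batch 2 replicate 1) exceeded every MII library. The log2 change was 0.47 (SE 0.060, edgeR adjusted p = 5.53e-08). It was 0.33 (adjusted p = 0.01742) in batch 2 alone and 0.22 (adjusted p = 0.2014) with the granulosa level in the model. Palb2, which joins Brca1 to Brca2, rose by 0.35, Bard1, the partner of Brca1 in a ubiquitin ligase, by 0.33, and Brca1 itself by 0.21.

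Rad50 (chr11:53649519-53707319) stood at 254, 374 and 741 CPM in GV and 392, 599 and 702 CPM in MII libraries. In batch 1 all 9 MII libraries lay above all 9 GV libraries. In batch 2 the 741 CPM of the same B6 GV library as for Brca2 lay above every MII library. Rad50 rose by 0.47 on the log2 scale (SE 0.074, edgeR adjusted p = 1.89e-06), while its complex partners had changes of 0.19 (Mre11a, the nuclease) and 0.19 (Nbn) that did not pass the threshold. The change of Rad50 was 0.59 (edgeR adjusted p = 1.817e-05) in batch 1 alone, 0.22 (adjusted p = 0.1527) in batch 2 alone and 0.08 (adjusted p = 0.7371) with the granulosa level in the model. Rbbp8 (also called CtIP), which starts resection with this complex, rose by 0.42 and the Bloom helicase Blm by 0.31.

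Fancm (chr12:65074110-65131842), a translocase that anchors the Fanconi core complex on DNA, had 31.2, 54.0 and 86.2 CPM in GV and 57.4, 74.7 and 118 CPM in MII libraries. In batch 1 all 9 MII libraries exceeded all 9 GV libraries, and in batch 2 5 of 7 did. The log2 change was 0.46 (SE 0.073, edgeR adjusted p = 2.946e-06). For Fancm it was 0.27 (adjusted p = 0.06034) in batch 2 alone and 0.34 (adjusted p = 0.1327) with the granulosa level in the model. Fancd2 rose by 0.38 and Fanci by 0.31. The other core complex genes had log2 changes of 0.13 (Fancg), 0.07 (Fancb), -0.01 (Fancc), -0.17 (Fance), -0.22 (Fanca), -0.43 (Fancl, the ubiquitin ligase) and -0.63 (Fancf), none past the threshold.

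Ercc1 (chr7:19344067-19356524), the non-catalytic subunit of a nuclease that cuts beside bulky lesions, was the gene that fell, by 1.16 on the log2 scale (SE 0.423, edgeR adjusted p = 0.02091). It was scarce, with 0.123, 1.95 and 4.13 CPM as its lowest, median and highest GV levels and 0, 0.634 and 2.21 CPM in MII libraries. The batches differed: the log2 change was -1.82 (adjusted p = 0.000487) in batch 1 alone and -0.19 (adjusted p = 0.9318) in batch 2 alone. In batch 2, GV libraries held 0.123 to 1.32 CPM and MII libraries 0 to 1.43 CPM, so the stages overlapped throughout. Xpc, which detects distorted DNA, and Xpa had changes of -0.21 and -0.03.

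The remaining genes showed small or uncertain stage changes. Chek1 rose by 0.40 and Msh6 by 0.34, and Pms2, a mismatch repair protein, by 0.25; Pms2 no longer passed when any 1 of 13 libraries was left out, and the other 15 calls held without each of the 32. Log2 changes past no threshold were 0.18 for Msh3 and -0.18 for Mlh3, 0.03 for Atrip, -0.07 for Atr, -0.20 for Atm and -0.84 for Chek2. Among end-joining genes they were 0.12 (Xrcc4), 0.05 (Lig4), 0.03 (Xrcc5), -0.22 (Xrcc6) and -0.24 (Prkdc), and among base excision genes 0.41 (Ogg1), -0.08 (Parp1), -0.14 (Ung), -0.21 (Lig1) and -0.26 (Apex1).

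**Figure D3:**
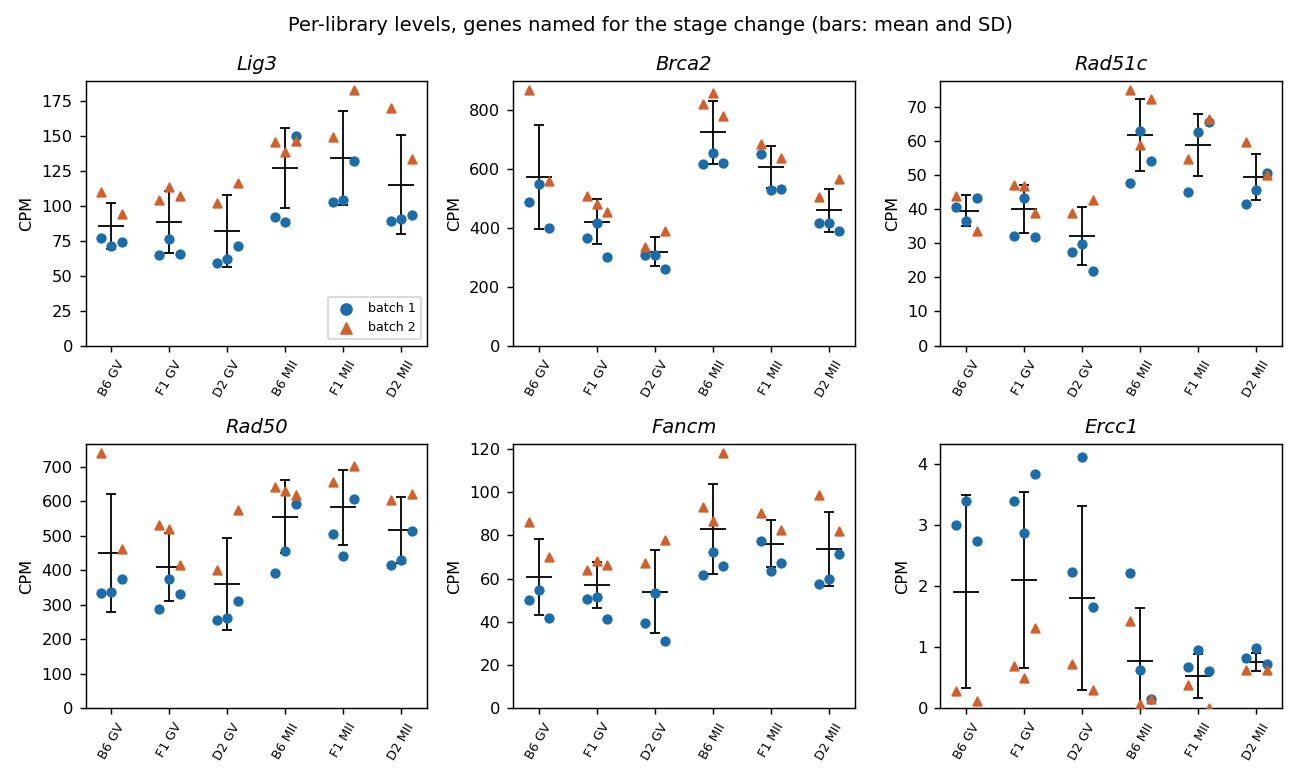
CPM of Lig3, Brca2, Rad51c, Rad50, Fancm and Ercc1 in each library of the 6 groups, circles for batch 1 and triangles for batch 2, with group mean and SD. The batch 2 mean lies above the batch 1 mean in each group for Lig3, Rad50 and Fancm, and Ercc1 is above 1.6 CPM in every batch 1 GV library and at most 1.32 CPM in batch 2 GV libraries.

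Granulosa marker levels moved with the stage, so a model that holds both separates them poorly. When the granulosa level of each library was added to the model, 3 of the 47 genes passed for the stage: Lig3 (0.43, edgeR adjusted p = 0.02981) and Rad51c (0.47, adjusted p = 0.04926) rose and Lig4 fell by 0.36 (adjusted p = 0.03756). In that fit 2344 of 19003 genes were called, against 9862 without the covariate, and 15 of the 16 repair genes called before had the same sign, Brca1 being at -0.05. Without the 3 GV libraries of low granulosa level the count was 18, including all 16. Within batch 1 alone 17 genes passed, and within batch 2 alone 4 (Brca2, Palb2, Rad51c and Lig3), with the same sign as reported for all 16 in both. The 16 were called on both batches together, so their sign within each batch is no independent check. In the 3 GV libraries of low granulosa level, Lig3 lay at 104 to 116 CPM and Rad51c at 42.8 to 47.1 CPM, below the batch 2 MII libraries, which began at 134 and 50.0 CPM. For Rad50 the B6 library of the 3 had 741 CPM, above the batch 2 MII range of 604 to 702 CPM, and the F1 and D2 libraries had 530 and 575.5 CPM, below it. For Fancm the B6 library had 86.2 CPM, within the batch 2 MII range of 82.0 to 118 CPM, and the F1 and D2 libraries had 64.0 and 77.8 CPM, below it. The part of granulosa RNA in the stage changes was not tested beyond these values.

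By strain, 6 of the 47 genes rose in B6 (26.7% of all genes passed in either direction), 12 rose in D2 (28.7% of all) and 13 rose and 1 fell in F1 (32.9% of all). In B6 these were Palb2 (0.57, edgeR adjusted p = 0.0005824), Lig3 (0.52), Rad51c (0.60), Fancm (0.41), Brca2 (0.32) and Blm (0.37). In D2 the lowest adjusted p were those of Brca2 (0.52, adjusted p = 0.0004944), Rad51c (0.64), Rad50 (0.56) and Lig3 (0.49), and the D2 risers further included Fancm, Chek1, Msh6, Brca1, Fanci, Rbbp8, Xrcc2 (0.70) and Msh3 (0.40). In F1 Lig3 (0.67, adjusted p = 3.892e-05), Brca2 (0.58), Rad50 (0.58) and Rad51c (0.59) led, followed by Fancm, Rbbp8, Chek1, Fancd2, Palb2, Blm, Msh6, Brca1 and Bard1, and the faller was Ercc1 (-2.11, adjusted p = 0.02587). Leaving out 1 library in turn, 4 of the 6 calls in B6, 4 of the 12 in D2 and 7 of the 14 in F1 held each time. These counts do not show that strains differed. In the test of the difference itself, the stage change in D2 minus that in B6, 0 of the 47 genes passed (0.105% of all genes did) with edgeR and 0 with DESeq2, and 7 had an unadjusted p under 0.05. The smallest of these was that of Xrcc2, whose stage change was 0.95 larger in D2 (SE 0.297, edgeR adjusted p = 0.2573). Palb2 had the opposite sign, -0.46 (SE 0.174, adjusted p = 0.3820).

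Maturing oocytes lengthen or shorten the poly(A) tails of stored transcripts, and a U-rich element near the 3′ end, the cytoplasmic polyadenylation element, marks many transcripts for lengthening. The last 150 bases of 1 annotated transcript per gene were searched on the sense strand for TTTTAT or TTTTAAT, for genes whose 3′ UTR was at least that long (GENCODE M21, GRCm38). Of all genes tested with such an end, 24.8% of 13565 held the element, 33.5% of those that rose and 19.5% of those that fell. Of the 42 repair genes with such an end 8 held it (19.0%), and of the 14 that rose 3 did (21.4%). The 3 risers are shown because they include 2 of the leading genes of the stage comparison, in the direction of the transcript, with the element in capitals: Fancm at chr12:65131980-65132009 on the plus strand, Bard1 at chr1:71027575-71027604 on the minus strand, and Brca2 at chr5:150569697-150569726 on the plus strand.
Fancm: ctcaattctgaaTTTTATcagctggtgggc
Bard1: aatgtgtgtaatTTTTATtttttcctaatg
Brca2: ctacaactatcaTTTTATatacaaaataaa
The element of Brca2 ended 32 bases before the transcript end and that of Fancm 61. Bard1 held 2, of which the printed one ended 89 and the other 110 bases before the end. These are ends of GENCODE transcripts, and the distances depend on the annotation. The RefSeq coordinates given above end Brca2 further downstream, at chr5:150570147. They end Fancm at chr12:65131842, before its printed window. A match of these letters is a description of the annotated sequence, and use of the element was not measured.

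The comparison of D2 with B6 asks how the parental strains differ at a given stage. In GV oocytes 15 of the 47 genes were lower in D2 and 3 higher by edgeR's quasi-likelihood test. The lower genes were 31.9% of the 47, against 11.3% of all genes, and the higher genes 6.38%, against 9.16%. In MII oocytes 10 were lower (21.3%, against 13.0% of all genes) and 8 higher (17.0%, against 13.4%). The median log2 difference was -0.23 in GV and -0.11 in MII for the 47 genes and -0.02 at both stages for all genes. With median-of-ratios scaling in place of TMM, 11 were lower and 3 higher in GV, and 9 lower and 8 higher in MII. With DESeq2, 13 were lower and 4 higher in GV, and 14 lower and 8 higher in MII. The GV and the MII comparison contrast different libraries. Both come from the same model of all libraries, with a common batch term and estimate of spread, so they are not independent. Of the 18 genes called at each stage 12 were called at both, 66.7% of either list, all in the same direction. Brca2, Rad51d, Fanca, Fancc, Fancd2, Fanci, Msh3, Xrcc4 and Parp1 were lower in D2 at both stages, and Atrip, Lig4 and Xpc higher. Over all 47 genes the differences at the 2 stages had a Pearson r of 0.82 and a Spearman rho of 0.78. Genes are not independent replicates, and the points share their strain, batches and reference genome. The share called at both stages and these correlations were not computed over all genes. They therefore show no trait particular to the repair genes. Granulosa levels overlapped between the strains, with means of 4.06 ± 2.00 (SD, n = 5) in B6 GV and 4.41 ± 1.74 (n = 5) in D2 GV. Reads of all strains were aligned to the mouse reference, which derives from B6; the part of D2 sequence differences in these values was not tested.

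**Figure D4:**
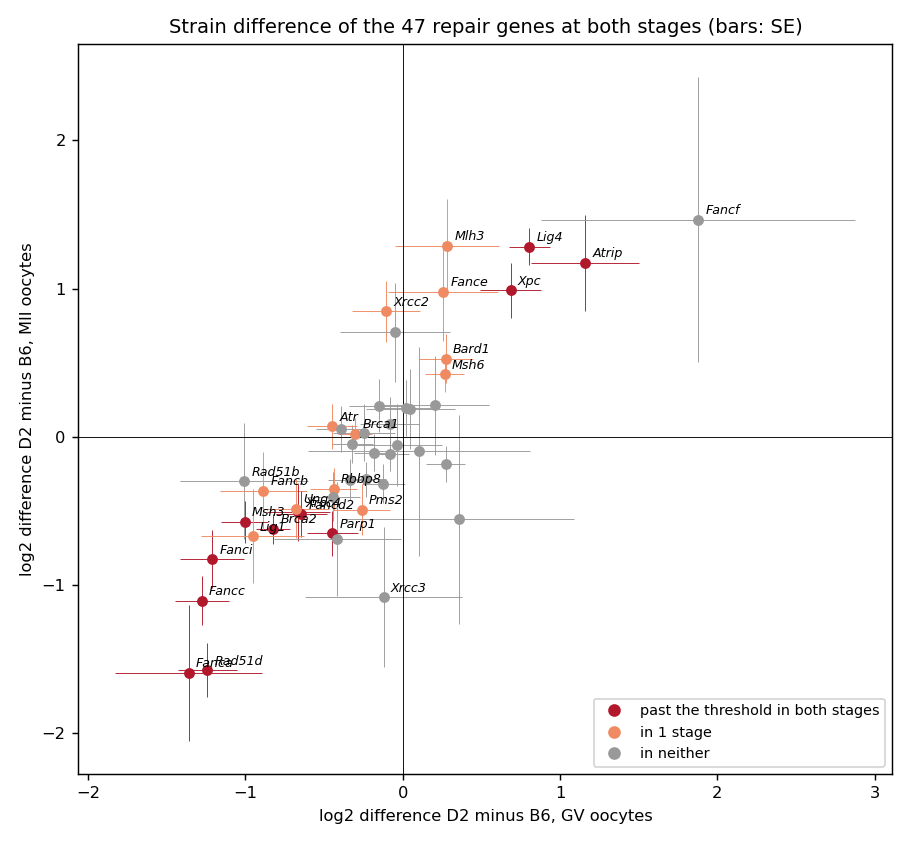
Log2 difference D2 minus B6 of the 47 genes in GV (horizontal) and in MII oocytes (vertical), with SE as bars and colour for the number of stages in which the test was passed. The 12 genes past the threshold at both stages lie in the lower left (9 genes) and the upper right (3 genes).

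Fanconi genes were among the largest strain differences. Fancc (chr13:63301334-63497292), a core complex subunit, had 28.5 and 27.0 CPM in the batch 2 and 53.9, 50.2 and 60.3 CPM in the batch 1 libraries of B6 GV, and 18.3 and 19.6 CPM and 16.6, 16.6 and 16.8 CPM in those of D2 GV. Every D2 library lay below every B6 library, also within each batch. The log2 difference in GV was -1.28 (SE 0.173, edgeR adjusted p = 5.15e-07), or 2.42-fold lower in D2. It was -1.66 (adjusted p = 2.531e-06) in batch 1 alone and -0.52 (adjusted p = 0.2003) in batch 2 alone. In MII the B6 libraries ran from 31.6 to 48.4 CPM with a median of 35.8, and the 5 D2 libraries had 19.4, 18.2, 16.8, 16.3 and 19.1 CPM. The groups did not overlap, and Fancc was 2.15-fold lower in D2 MII oocytes (log2 difference -1.11, SE 0.166, edgeR adjusted p = 2.414e-06).

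Both ID2 genes were lower in D2 at both stages. Fanci differed by -1.21 in GV (edgeR adjusted p = 2.177e-05) and -0.83 in MII (adjusted p = 0.001267), and in GV its B6 libraries lay at 15.1 to 29.6 CPM and its D2 libraries at 8.10 to 12.5 CPM, without overlap. Fancd2 differed by -0.65 in GV (adjusted p = 0.003154) and -0.52 in MII (adjusted p = 0.01087). In GV the B6 libraries of Fancd2 held 31.7 to 44.5 CPM and the D2 libraries 22.4 to 25.9 CPM. Fanca was scarce but had the largest fitted difference downwards, -1.36 in GV (adjusted p = 0.03398) and -1.59 in MII (adjusted p = 0.008326). Its GV libraries ran from 2.13 to 8.67 CPM in B6 and from 0.673 to 4.09 CPM in D2, which overlap, and its MII libraries from 3.54 to 6.27 CPM and from 1.03 to 2.33 CPM, which do not. Fancb, a core subunit encoded on the X chromosome, was lower in D2 GV oocytes (-0.89, adjusted p = 0.01791), with -0.36 (adjusted p = 0.3342) in MII. Fance was higher in D2 MII oocytes (0.98, adjusted p = 0.02658), where 1 D2 library (batch 2 replicate 1) had 21.0 CPM and the other 4 had 5.47 to 9.34 CPM. Without that library the difference of Fance was 0.40 (edgeR adjusted p = 0.3694), and in batch 1 alone it was 0.21 (adjusted p = 0.7274). Fancf, Fancg, Fancl and Fancm passed the threshold at neither stage, and the 1.88 of Fancf in GV had an SE of 0.998 and an adjusted p of 0.2031 by edgeR at levels of 0.717 ± 0.562 CPM (SD, n = 5) in B6 and 1.93 ± 0.932 (n = 5) in D2. Fanci shares 665 exon bases with Polg and Fanca 552 with Zfp276, each on the opposite strand.

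In homologous recombination the differences were uneven. Rad51d (chr11:82871960-82890624), a recombination protein, had 107, 102.5, 44.8, 44.0 and 35.2 CPM in the B6 GV libraries and 32.5, 52.6, 19.8, 16.2 and 18.2 CPM in the D2 GV libraries, the first pair of each being of batch 2. The groups overlapped over both batches and did not overlap within either. The log2 difference was -1.24 in GV (SE 0.186, edgeR adjusted p = 3.502e-06). In MII the B6 libraries of Rad51d held 53.8 to 93.4 CPM with a median of 68.7, and the D2 libraries 36.6, 35.7, 18.4, 16.0 and 12.3 CPM. They did not overlap, and the level in D2 was 2.98-fold lower (log2 difference -1.57, SE 0.183, adjusted p = 1.768e-08). Within the batches the MII difference was -1.89 and -1.30. In GV 3 of the 9 recombination genes were lower in D2 (Brca1, Brca2 and Rad51d), and in MII 2 were lower (Brca2 and Rad51d) and 2 higher (Bard1 and Xrcc2).

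Brca2 had 867, 558, 488, 547 and 398 CPM in the B6 GV libraries and 335, 390, 306, 306 and 259 CPM in the D2 GV libraries, the first pair of each again being of batch 2. Every D2 library lay below every B6 library. The log2 difference was -0.82 (SE 0.108, edgeR adjusted p = 2.592e-07). In MII the B6 libraries of Brca2 ran from 615 to 857 CPM with a median of 717, and the D2 libraries held 504, 566, 416, 416 and 390 CPM, again without overlap. The MII difference was -0.62 (SE 0.103, adjusted p = 1.356e-05). Brca1 was lower in D2 GV oocytes by 0.30 on the log2 scale (adjusted p = 0.04791), with 0.02 (adjusted p = 0.9174) in MII. Bard1 (0.53, adjusted p = 0.01608) and Xrcc2 (0.85, adjusted p = 0.001734) were higher in D2 MII oocytes. In batch 1 alone the MII difference of Xrcc2 was 0.33 (edgeR adjusted p = 0.3756) and in batch 2 alone 1.33 (adjusted p = 0.007425). For Bard1 it was 0.58 (adjusted p = 0.07066) in batch 1 alone and 0.27 (adjusted p = 0.5268) in batch 2 alone. Palb2, Rad51b, Rad51c and Xrcc3 passed at neither stage. Of the resection genes Rbbp8 was lower in D2 GV oocytes (-0.44, adjusted p = 0.03277), and Rad50, Mre11a, Nbn and Blm passed at neither stage.

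In mismatch repair Msh3 (chr13:92211878-92355004), which recognises larger loops, had 87.9, 64.8, 74.3, 80.5 and 72.9 CPM in the B6 GV libraries and 39.7, 49.4, 29.7, 31.9 and 39.0 CPM in the D2 GV libraries, in the same order. The groups did not overlap, and Msh3 was 2.01-fold lower in D2 (SE 0.150 on the log2 scale, edgeR adjusted p = 3.069e-06). In MII the difference was -0.57 (SE 0.144, adjusted p = 0.002393), with B6 libraries at 62.3 to 87.1 CPM and D2 libraries at 42.4 to 65.5 CPM, which overlap. With the strand setting not given, the counts of Msh3 are uncertain as well. Mlh3, which acts in meiotic crossing over, was 2.45-fold higher in D2 MII oocytes (log2 difference 1.29, adjusted p = 0.002063) at 4.95 ± 2.24 CPM (SD, n = 6) in B6 and 11.7 ± 4.26 (n = 5) in D2. Msh6 was higher there by 0.42 (adjusted p = 0.006749) and Pms2 lower by 0.49 (adjusted p = 0.03332), so in MII 2 of the 4 mismatch repair genes were higher in D2 and 2 lower.

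Lig4 (chr8:9970020-9977680), the ligase of end joining, was higher in D2. The B6 GV libraries had 127, 79.2, 86.2, 75.3 and 66.2 CPM and the D2 GV libraries 137, 181, 140, 158 and 139 CPM, batch 2 first, so every D2 library lay above every B6 library. The log2 difference was 0.80 in GV (SE 0.131, edgeR adjusted p = 1.251e-05). In MII the B6 libraries of Lig4 ran from 65.9 to 80.4 CPM with a median of 76.6, and the D2 libraries had 174, 190, 180, 186 and 168 CPM. The difference there was 1.28 (SE 0.125, adjusted p = 3.225e-10), or 2.44-fold. Xrcc4, the protein that binds and stabilises Lig4, was lower in D2 at both stages (-0.66, adjusted p = 0.01559, and -0.51, adjusted p = 0.04947). Its D2 and B6 libraries overlapped at both stages, at 5.58 to 16.0 and 12.4 to 19.9 CPM in GV. The Ku subunits Xrcc5 and Xrcc6 and the kinase Prkdc passed at neither stage.

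Xpc (chr6:91489305-91515888) was higher in D2 at both stages. In MII its B6 libraries held 10.1 to 16.8 CPM with a median of 13.0, and the D2 libraries 21.1, 29.0, 25.0, 31.6 and 23.4 CPM, without overlap. The log2 difference was 0.99 (SE 0.186, edgeR adjusted p = 7.966e-05). In GV it was 0.69 (adjusted p = 0.009111), with B6 libraries at 14.9 to 17.3 CPM and D2 libraries at 16.1 to 37.6 CPM, which overlap. Xpa and Ercc1 passed at neither stage. Atrip, the partner through which the kinase Atr finds single-stranded DNA, was higher in D2 by 1.16 in GV (adjusted p = 0.01275) and 1.17 in MII (adjusted p = 0.005662). In batch 1 alone the GV difference of Atrip was 2.07 and in batch 2 alone 0.27 (adjusted p = 0.8327), where 1 of the 2 B6 libraries had 14.0 CPM and the other 3.40 CPM. Atr itself was lower in D2 GV oocytes (-0.45, adjusted p = 0.04237), with 0.07 in MII, and Atm, Chek1 and Chek2 passed at neither stage. Among base excision and nick ligation genes, Parp1, the sensor of strand breaks, was lower in D2 at both stages (-0.45, adjusted p = 0.04305, and -0.65, adjusted p = 0.001395). Ung (-0.68, adjusted p = 0.01708) and the replicative ligase Lig1 (-0.95, adjusted p = 0.0365) were lower in D2 GV oocytes, and Ogg1, Apex1 and Lig3 passed at neither stage. The GV difference of Ung was -0.95 (edgeR adjusted p = 0.03534) in batch 1 alone and -0.13 (adjusted p = 0.8085) in batch 2 alone. For Lig1 it was -1.15 (adjusted p = 0.04198) in batch 1 alone and -0.45 (adjusted p = 0.6638) in batch 2 alone.

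**Figure D5:**
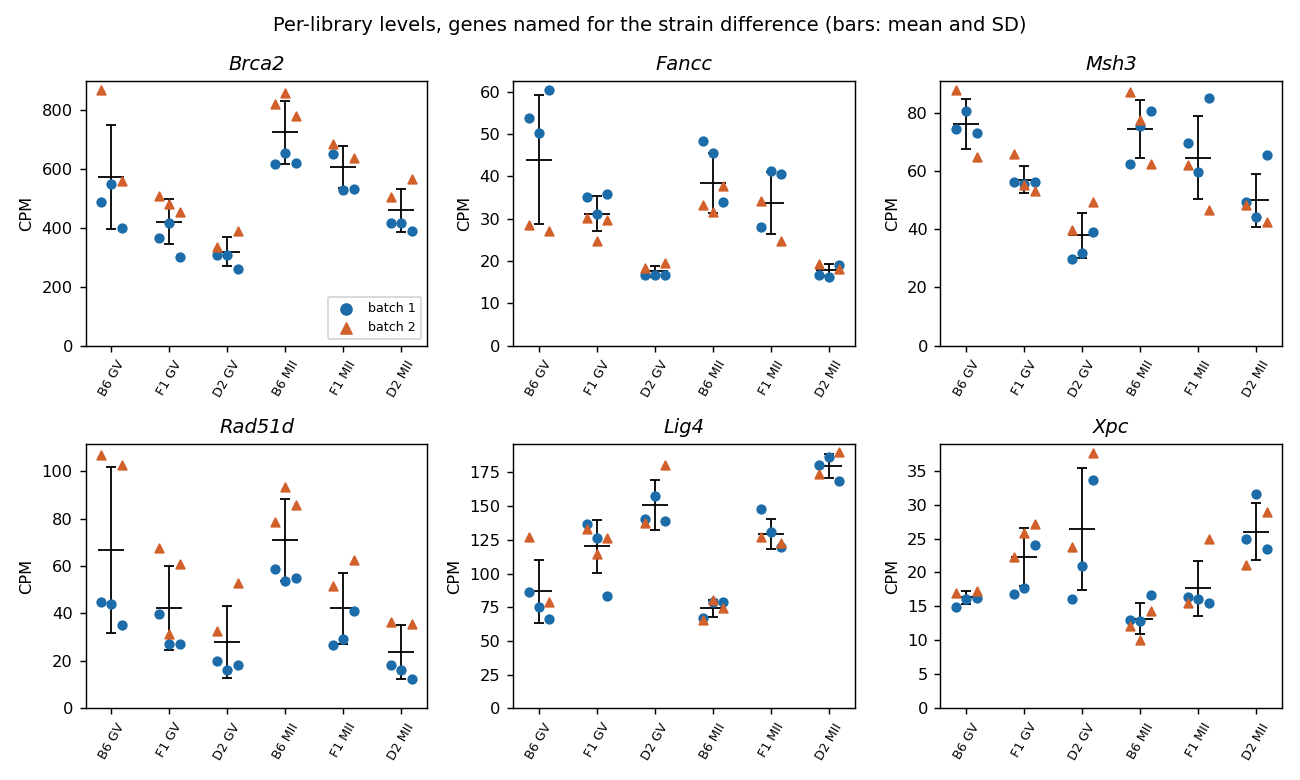
CPM of Brca2, Fancc, Msh3, Rad51d, Lig4 and Xpc in each library of the 6 groups, ordered B6, F1, D2 within each stage, circles for batch 1 and triangles for batch 2, with group mean and SD. Fancc and Brca2 in D2 lie below every B6 library at both stages, Lig4 in D2 lies above, and the F1 mean lies between the parents' means in each panel and stage.

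The count in GV oocytes was the less stable of the 2. It was 9 in batch 1 alone and 5 in batch 2 alone, 12 without the 3 GV libraries of low granulosa level, and 11 without D2 batch 2 replicate 1, B6 batch 1 replicate 4, D2 batch 1 replicate 3 or D2 batch 1 replicate 5, each left out in turn. The MII count was 13 in batch 1 alone and 8 in batch 2 alone. All 18 genes called at each stage kept their sign in each batch. They were called on both batches together, so each batch took part in selecting them and this is no independent check. Leaving out any 1 of the 32 libraries, 8 of the 18 GV calls and 14 of the 18 MII calls held each time. The GV calls of Brca1, Rbbp8, Parp1, Atr, Lig1, Fanca, Xrcc4, Fancb, Ung and Xpc and the MII calls of Xrcc4, Pms2, Fance and Bard1 were each lost without at least 1 library. With the number that opens the batch 2 titles as a term, 16 genes passed in GV and 20 in MII, all 18 kept their sign at each stage, and Atr, Brca1, Fanca and Rbbp8 in GV and Fance in MII no longer passed.

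The F1 hybrid was compared with its parents and with the mid-parent, the mean of the parents' log2 levels. The comparisons with B6 and with D2 use the same F1 libraries. Of the 18 genes that differed between the parents, the F1 mean lay between the parental means for 16 in GV, with Rbbp8 below both and Lig1 above both, and for 18 in MII. The share over all genes that differed between the parents was not computed, so these counts show nothing particular to the repair genes. The F1 GV mean of Lig1, 54.9 CPM, rests on F1 batch 2 replicate 2 at 155 CPM; without it the mean was 34.8 CPM, between D2 (30.6 CPM) and B6 (54.6 CPM). Leaving out 1 F1 library in turn could also place the F1 mean of Brca1 and Parp1 in GV and of Fance and Fancd2 in MII outside the parental means. In GV 4 of the 47 genes differed from B6 (5.5% of all genes did): Brca2 (-0.47, edgeR adjusted p = 0.003058), Rad51d (-0.66) and Rbbp8 (-0.51) were lower in F1 and Lig4 (0.47) was higher. From D2, 5 genes differed in GV (6.05% of all), each higher in F1: Fanci (1.09, adjusted p = 0.0002143), Fancc (0.83), Msh3 (0.59), Brca2 (0.35) and Rad51d (0.58). In MII 2 genes differed from B6 (7.36% of all), Lig4 (0.81, adjusted p = 1.953e-05) and Rad51d (-0.69; -0.59, adjusted p = 0.05825, with the title number of batch 2 as a term), and 5 from D2 (8.11% of all), of which Fancc (0.89, adjusted p = 0.0004207), Rad51d (0.89), Brca2 (0.41) and Fancd2 (0.52) were higher in F1 and Lig4 (-0.47) was lower.

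Lig4 and Rad51d passed the threshold against both parents in MII, with an F1 mean between the parental means. In MII, Lig4 averaged 74.2 ± 6.34 CPM (SD, n = 6) in B6, 129.5 ± 11.1 (n = 5) in F1 and 180 ± 8.80 (n = 5) in D2, and the 3 groups did not overlap, with F1 libraries at 120 to 148 CPM. Rad51d averaged 70.9 ± 17.2 (n = 6), 42.1 ± 15.1 (n = 5) and 23.8 ± 11.5 CPM (n = 5), and neighbouring groups overlapped. The F1 GV libraries of Fanci were tight, at 20.4 ± 0.509 CPM (n = 6), close to the 22.8 ± 6.68 (n = 5) of B6 and above every D2 GV library. Against the mid-parent, 0 of the 47 genes differed in GV (0.879% of all genes did) and 0 in MII (1.16% of all) with edgeR, and 0 at either stage with DESeq2; at an unadjusted p under 0.05 there were 2 at each stage, Fanci (0.48) and Rbbp8 (-0.29) in GV and Fancc (0.34) and Mre11a (0.35) in MII. The F1 counts were small and moved with single libraries. Against B6 in GV, leaving out F1 batch 2 replicate 2, F1 batch 1 replicate 5 or B6 batch 2 replicate 1 left 2 genes, and so did the title number of batch 2 as a term, with which Rad51d (-0.59, edgeR adjusted p = 0.05764) and Rbbp8 (-0.44, adjusted p = 0.09514) no longer passed. Against D2 in GV, 2 genes were left without D2 batch 1 replicate 3 or 4, and 3 without D2 batch 1 replicate 5, F1 batch 2 replicate 1 or 3, F1 batch 1 replicate 3, B6 batch 1 replicate 4, or the MII libraries B6 batch 1 replicate 2 or 3 or F1 batch 1 replicate 4. Against D2 in MII, 3 were left without F1 batch 1 replicate 3.

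A further 145 repair genes outside the 47, all tested, give the wider pathway. From GV to MII 54 rose (37.2%, against 22.9% of all genes tested) and 36 fell (24.8%, against 29.0%), with a median log2 change of 0.13, against -0.06 for all genes. Among them recombination genes had 18 risers and 8 fallers of 38, and base excision genes 2 risers and 8 fallers of 19. The risers with the lowest adjusted p were Usp1, which removes ubiquitin from the ID2 complex (145 ± 17.7 to 226 ± 31.9 CPM, SD, n = 16 each, edgeR adjusted p = 2.506e-10), the helicase Helq (132 to 202 CPM) and Rif1, which protects break ends from resection (601 to 846 CPM). The fallers were Rnf8, a ubiquitin ligase of the damage response (58.9 ± 17.8 to 12.7 ± 6.76 CPM, edgeR adjusted p = 1.405e-17), Sem1, a small protein that binds Brca2 (24.7 to 5.03 CPM), and Gtf2h5, a subunit of TFIIH (32.0 to 9.50 CPM).

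Between the strains, 10 of the 145 genes were higher (6.90%, against 9.16% of all genes) and 20 lower (13.8%, against 11.3%) in D2 GV oocytes, and 18 were higher (12.4%, against 13.4%) and 16 lower (11.0%, against 13.0%) in D2 MII oocytes, shares near those of all genes. The same 3 genes led at both stages. Hus1, a subunit of the checkpoint clamp, was 2.46-fold lower in GV (231 ± 40.6 CPM in B6 and 93.2 ± 11.9 in D2, SD, n = 5 each, edgeR adjusted p = 1.274e-11) and 2.49-fold lower in MII. Poli, a translesion polymerase, was 2.16-fold higher in D2 in GV and 2.35-fold higher in MII. Ube2t, the ubiquitin-conjugating enzyme that serves the Fanconi core complex, was 1.97-fold lower in D2 GV oocytes (111 ± 33.4 and 58.2 ± 23.7 CPM, n = 5 each, adjusted p = 3.197e-06) and 2.35-fold lower in MII. Of the 10 Fanconi and crosslink genes among the 145, Ube2t included, 1 was lower and 0 higher in D2 GV oocytes. In D2 MII oocytes 2 of these 10 were lower and 2 higher.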

How the data were processed

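The deposited file holds the authors' read counts per gene for 32 libraries, not normalised, with NCBI gene identifiers. The submitters' processing notes name HISAT2, SAMtools, featureCounts (Subread 1.5.1) and DESeq2 1.16.1, with the build GRCm38.p4. Strand and multi-mapping settings are not given in the sources used here. Per the labels' protocols, RNA was amplified by SPIA before library preparation, sequenced as 50 nt single reads, and the batches ran on different instruments.

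Of 37444 entries 3 named no gene (at most 0.019% of a library) and were left out. No 2 libraries were identical. Symbols were matched through RefSeq for 36371 genes, which also gave coordinates. Transcript lengths were those of the longest protein-coding transcript of each symbol in GENCODE M21. Genes were filtered with filterByExpr (minimum count 10) on the 6 groups and scaled by TMM. A model with the groups and batch was fitted to all libraries with edgeR 4.0.16 (robust quasi-likelihood, two-sided, Benjamini-Hochberg, threshold 0.05), and the script was tested on simulated data. The SE is the log2 change divided by the root of F. DESeq2 1.42.0, other scaling, no filter, batches alone, a replicate block, the number opening the batch 2 titles in place of batch, a granulosa covariate (mean log2 CPM of 12 markers, prior count 3) and omission of single libraries were alternatives. R was 4.3.3.

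Members and lists were chosen with earlier results of these data known. Every member is named. Full values went to the 5 lowest adjusted p in each direction for the stage and the 5 lowest for D2 against B6 at each stage; elsewhere every member past the threshold is named, and of the other repair genes 3 per direction for the stage and 3 per stage for the strains. Any further values given in full were chosen after they were seen.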

Additional observations from a re-analysis of the deposited data

Results flagged for a closer look

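Of 66 sets of values (11 genes given full values in 6 groups), 2 held a library far from the others of its group by Dixon's test at 95%; chance alone flags about 1 set in 20. Msh3 had 65.9 CPM in F1 GV batch 2 replicate 1, against 53.0 to 56.3 CPM in the other 5 libraries, and that library is 1 of the 3 GV libraries of low granulosa level. Xpc had 24.9 CPM in F1 MII batch 2 replicate 2, against 15.4 to 16.4 CPM in the other 4 libraries.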

How the results depend on the processing

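For the 16 named changes of single genes, 664 of 672 values under 42 alternatives kept direction and side of the threshold, and 8 kept direction only: Brca2, Rad50, Fancm and Ercc1 with the granulosa covariate, and Rad50, Fancm, Ercc1 and the GV strain difference of Fancc in batch 2 alone. All but 10 of the 42 alternatives only left out 1 library. The 16 were chosen by low adjusted p in the same data, so most were likely to hold. Counts moved more, and the cause was not tested. The stage count of 16 became 4 in batch 2 alone and 3 with the granulosa covariate (15 to 19 leaving out 1 library). D2 against B6 in GV, 18, became 9 with no filter on low counts, 9 in batch 1 alone and 5 in batch 2 alone (11 to 19). D2 against B6 in MII, 18, became 8 in batch 2 alone (15 to 19). F1 against B6 in GV, 4, became 1 in batch 1 alone, 2 without the GV library whose granulosa level was within the MII range and 2 with the title number of batch 2 in place of batch (2 to 4). F1 against D2 in GV, 5, became 3 with median-of-ratios scaling, 3 in batch 1 alone and 0 in batch 2 alone (2 to 5). F1 against B6 in MII, 2, became 0 in batch 2 alone and 1 with the replicate block (2 to 3). F1 against D2 in MII, 5, became 3 with no filter and 0 in batch 2 alone (3 to 7). The 2 mid-parent counts and the strain by stage count were 0 under each alternative. Deviations from the mean of each group within its batch were correlated between libraries of the same batch and replicate number (59 pairs, r from -0.46 to 0.36, 5 over 0.1). Where a group held 2 libraries in a batch, their deviations mirror each other, so some pairs repeat a value. Libraries of different numbers were not compared, so these correlations cannot settle whether the numbers pair libraries. With a replicate block in place of batch the counts were 18 for the stage and 16 and 17 for D2 against B6 in GV and MII. The alternatives without 3 GV libraries and with the title number were chosen after seeing the data. Genes with few reads, such as Ercc1, Fancf and Chek2, have wide errors, and a single batch holds 2 or 3 libraries a group.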
